A study of Rattus norvegicus with 6 samples.

Results

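The transcripts of 10 components of insulin signalling and of the nutrient-sensing kinase complex mTORC1 were measured in rat beta cells, namely Insr, Igf1r, Irs1, Irs2, Akt1, Akt2, Mtor, Rraga, Tsc2 and Rps6kb1. They were taken by symbol from the 14217 genes that the array annotation named unambiguously. For each gene the brightest probe set (a group of short probes against 1 transcript) was read, with its other probe sets as a check, so that 18 of 31042 probe sets belonged to the 10 genes. The beta cells came from male Wistar rats of 10 weeks that had been either fasted for 24 h or fed ad libitum. They were purified by fluorescence-activated cell sorting and frozen without culture, and 92% were insulin positive per the labels. Each group had 3 isolates, each a pool of 5 rats on its own array, so that single animals were averaged within a pool and their variation cannot be read.

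Insulin and insulin-like growth factors bind receptor tyrosine kinases, which phosphorylate the adaptors IRS1 and IRS2. These recruit PI3-kinase, whose lipid product activates the kinase AKT. AKT inhibits the TSC complex and so releases the small GTPase Rheb, which switches on mTORC1 at the lysosome, to which the Rag GTPases bring it when amino acids are plentiful. Beta cells carry this pathway themselves, and IRS2 in particular is known to be needed for beta cell mass in mice. Most of the control along this route is by phosphorylation and location of the proteins, which a transcript array does not read.

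The deposited values were linear intensities, given below as such, and levels of different genes are not compared, because probe sets differ in how well they hybridize. For the comparison, a floor of 3.27 (the 10th percentile) was set under the intensities before they were put on the log2 scale, and limma was run over all 31042 probe sets, so that a negative log2 ratio means a lower signal in fasted than in fed rats. A gene passed if the ratio reached 1.5-fold with an unadjusted p under 0.05, the thresholds of the study. After adjustment no probe set of the array reached 0.05, either with limma, where 4622 did so unadjusted, or in a comparison of linear means with unequal variances, where 2882 did. Median signal was 17.1, 17.8 and 21.0 on the arrays of fasted rats and 21.1, 21.8 and 20.2 on those of fed rats, and fasted replicate 1 also had the lowest 75th percentile, at 53.8 against 60.9 to 73.8 on the other arrays. Over all probe sets the median log2 ratio was -0.20. Quantile normalization moved it to -0.02, and scaling of each array to its 75th percentile moved it to 0.01, so the members' values are also given after these 2 scalings. The array number limits the precision, and because whole isolates were hybridized, fewer cells of a type and less RNA per cell cannot be told apart.

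None of the 10 genes passed on its brightest probe set. This is set against 9.51% of all named genes that were lower in fasted rats and 2.29% that were higher at the same thresholds (8.43% and 2.37% of all probe sets). The ratio was below 0 for 9 of the 10 genes, all but Akt1, and for 66.3% of all probe sets. It stayed below 0 for 7 of the 10 under quantile normalization, against 52.5% of all probe sets, and for 6 under scaling, against 49.2%. Their median log2 ratio was -0.35, or -0.15 relative to the median over all probe sets, with -0.13 under quantile normalization and -0.11 under scaling. In 3 of the 10 genes, Irs2, Rraga and Rps6kb1, every fasted array lay below every fed array, against 21.2% of named genes, and in none did the fasted arrays lie above, against 5.76%. An unadjusted p under 0.05 was met by Irs2 and Rraga, both lower, against 14.9% of named genes in that direction and 3.64% in the other. Adjusted p in limma was between 0.176 and 0.98 over the 10 genes.

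**Figure D1:**
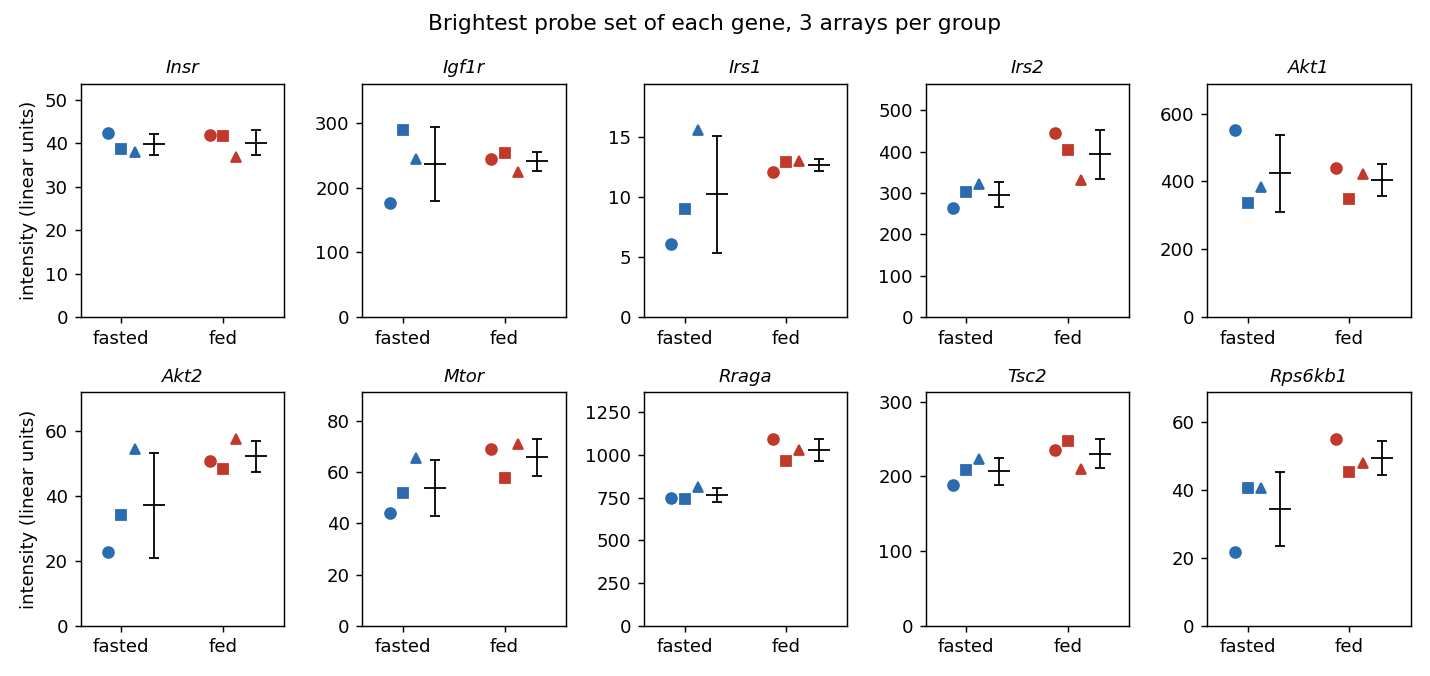
Linear intensity of the brightest probe set of each of the 10 genes, by array, with fasted rats left (blue) and fed rats right (red), a circle, square and triangle for replicates 1, 2 and 3, and the mean with SD as black bars (n = 3 each). The fasted arrays lie below the fed ones for Irs2, Rraga and Rps6kb1, and the groups overlap for the other 7 genes.

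The insulin receptor transcript did not differ detectably between the states. Insr, the receptor through which beta cells can sense the insulin they secrete, read 42.5, 38.8 and 37.98 on the arrays of fasted rats and 41.9, 41.8 and 36.9 on those of fed rats (probe set 1392043_at). The arrays of the groups interleaved. The means were 39.8 ± 2.41 in fasted and 40.2 ± 2.84 in fed rats (SD, n = 3 each), and the log2 ratio was -0.01 with a 95% confidence interval of -0.44 to 0.41 (limma, adjusted p = 0.98), which holds differences of up to about 1.35-fold. Quantile normalization gave 0.22 and scaling 0.23, so its sign rests on the scaling. A dim second probe set of Insr read 8.47, 14.8 and 20.3 in fasted and 5.16, 12.2 and 8.69 in fed rats, with an interval of -0.47 to 1.95 around a log2 ratio of 0.74.

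Insr is known in other systems as a gene that FOXO transcription factors switch on when insulin is low, and its promoter is shown because it was the only one among the members to hold the FOXO element. In the RefSeq promoter table (assembly GRCr8), 8 of the 10 genes were matched. The 250 bases before the start were searched on either strand for GTAAACA, which was in 3.21% of 33469 windows. The window of Insr, at chr12:6128804-6129053 on the minus strand, is given 5′ to 3′ in the direction of the gene, with the element in capitals on the reverse strand, 100 to 94 bases before the start.
Insr: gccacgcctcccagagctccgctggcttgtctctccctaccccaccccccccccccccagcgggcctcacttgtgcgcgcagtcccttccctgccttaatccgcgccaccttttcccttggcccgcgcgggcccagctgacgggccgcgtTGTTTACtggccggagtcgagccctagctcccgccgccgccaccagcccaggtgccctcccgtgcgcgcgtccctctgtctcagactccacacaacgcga
A match is a description of these letters and no evidence of binding. The E-box CACGTG was in 5.59% of windows and, of the members, in that of Igf1r, and no matched member held the element TGACGTCA, which was in 1.59% of windows.

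The IGF1 receptor had a bright and a dimmer probe set that read differently. The bright one for Igf1r (1392492_at) gave 175.6, 288.7 and 244.8 in fasted rats and 244.3, 253.8 and 224.8 in fed rats, with the fasted arrays on either side of the fed ones. Its log2 ratio was -0.06 (95% confidence interval -0.51 to 0.40, adjusted p = 0.896 in limma) and turned to 0.08 after quantile normalization and 0.19 after scaling. The dimmer one gave 24.6, 61.2 and 70.2 in fasted and 98.1, 72.7 and 86.3 in fed rats. All its fasted values lay below the fed ones, with a log2 ratio of -0.85 and an interval of -1.85 to 0.15. This probe set did not pass here, but it did so as lower with dim probe sets left out, with a pseudocount instead of the floor, with robust variance and without fasted replicate 3.

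Of the adaptors Irs1 and Irs2, Irs2 had the smaller error. Irs2, the main IRS protein of beta cells in mice, read 264.1, 302.6 and 322.3 in fasted rats and 446.2, 403.2 and 330.6 in fed rats (1371091_at). Every fasted array was below every fed array, although fasted replicate 3 and fed replicate 3 nearly met. The means were 296 ± 29.6 in fasted and 393 ± 58.5 in fed rats (SD, n = 3 each), a log2 ratio of -0.40 with a standard error of 0.14 (95% confidence interval -0.74 to -0.06), or 1.32-fold. The p of this difference was 0.0272 unadjusted and 0.29 after adjustment over all probe sets (limma), and the difference stayed under the 1.5-fold threshold. It was -0.28 under quantile normalization and -0.16 under scaling, and in neither did the unadjusted p reach 0.05. With each array left out in turn it lay between -0.52 and -0.31, and the unadjusted p reached 0.05 only without fasted replicate 3 or fed replicate 3.

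Irs1, the other widely expressed adaptor, was dim. Its single probe set (1369771_at) read 6.06, 9.00 and 15.6 in fasted rats and 12.1, 12.9 and 13 in fed rats, below the 20.2 of the median probe set. The fed isolates were nearly alike, whereas the fasted ones spread from below to above them. With a log2 ratio of -0.42 and an interval of -1.45 to 0.61 (adjusted p = 0.618, limma), a difference was not detectable at this signal. Under quantile normalization it was -0.21 and under scaling -0.18, and single arrays moved it between -0.10 without fasted replicate 1 and -0.78 without fasted replicate 3. A related adaptor of rodents, Irs3, named after its values were seen, read 17.1, 17.4 and 25.9 in fasted and 31.2, 29.1 and 30.3 in fed rats. Its fasted arrays were all below the fed ones, with a log2 ratio of -0.61 and an interval of -1.28 to 0.05 (adjusted p = 0.354, limma). The ratio of Irs2 over Irs1 within an array, which is free of the scaling of that array, differed between fasted and fed rats by 0.02 on the log2 scale (exact permutation test, two-sided, p = 1).

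The AKT kinases relay the signal from PI3-kinase, and their probe sets did not read alike. For Akt1 the brightest probe set (1383126_at) gave 551.2, 337.1 and 382.6 in fasted rats and 438.5, 349.7 and 421.4 in fed rats. Fasted replicate 1 was the highest of the 6 arrays and fasted replicate 2 the lowest. The log2 ratio of 0.05 (95% confidence interval -0.44 to 0.53, adjusted p = 0.924 in limma) turned to -0.16 without fasted replicate 1, and was 0.16 under quantile normalization and 0.29 under scaling. The next brightest read 112.9, 69.1 and 108.1 in fasted and 126.7, 129.3 and 140.0 in fed rats. There all fasted arrays were below the fed ones, with a log2 ratio of -0.48 and an interval of -0.99 to 0.02 (adjusted p = 0.346, limma), and it passed as lower without fasted replicate 1, at -0.61. The third, at 6.14 to 16.7 in fasted and 10.5 to 21.7 in fed rats, had a log2 ratio of -0.56 with an interval of -1.79 to 0.66.

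Akt2, the isoform best known for glucose uptake in muscle and fat of mice, had 4 probe sets. The brightest (1388765_at) read 22.6, 34.3 and 54.6 in fasted rats and 50.8, 48.5 and 57.6 in fed rats. Fasted replicates 1 and 2 were below all fed arrays and fasted replicate 3 was among them. The means of 37.2 ± 16.2 in fasted and 52.3 ± 4.76 in fed rats (SD, n = 3 each) gave a log2 ratio of -0.58 with an interval of -1.40 to 0.24 (adjusted p = 0.432, limma). It was -0.35 under quantile normalization, -0.34 under scaling and -0.27 without fasted replicate 1. Without fasted replicate 3 it was -0.91 and passed, which was the only alternative in which the brightest probe set of any of the 10 genes did. The second probe set leaned the other way, at 43.2, 46.3 and 55.3 in fasted and 39.1, 47.2 and 28.7 in fed rats (log2 ratio 0.35, interval -0.24 to 0.95). It passed as higher under quantile normalization, at 0.59, and under scaling, at 0.60. The other two gave -0.87 (interval -2.77 to 1.04) and 0.14 (interval -0.40 to 0.69). The within-array ratio of Akt2 over Akt1 was -3.57 ± 0.93 in fasted and -2.94 ± 0.14 in fed rats on the log2 scale (SD, n = 3 each), and the difference of -0.63 did not exceed the spread (exact permutation test, two-sided, p = 0.4). That difference was -0.11 without fasted replicate 1 and -1.01 without fasted replicate 3, where the groups did not overlap.

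**Figure D2:**
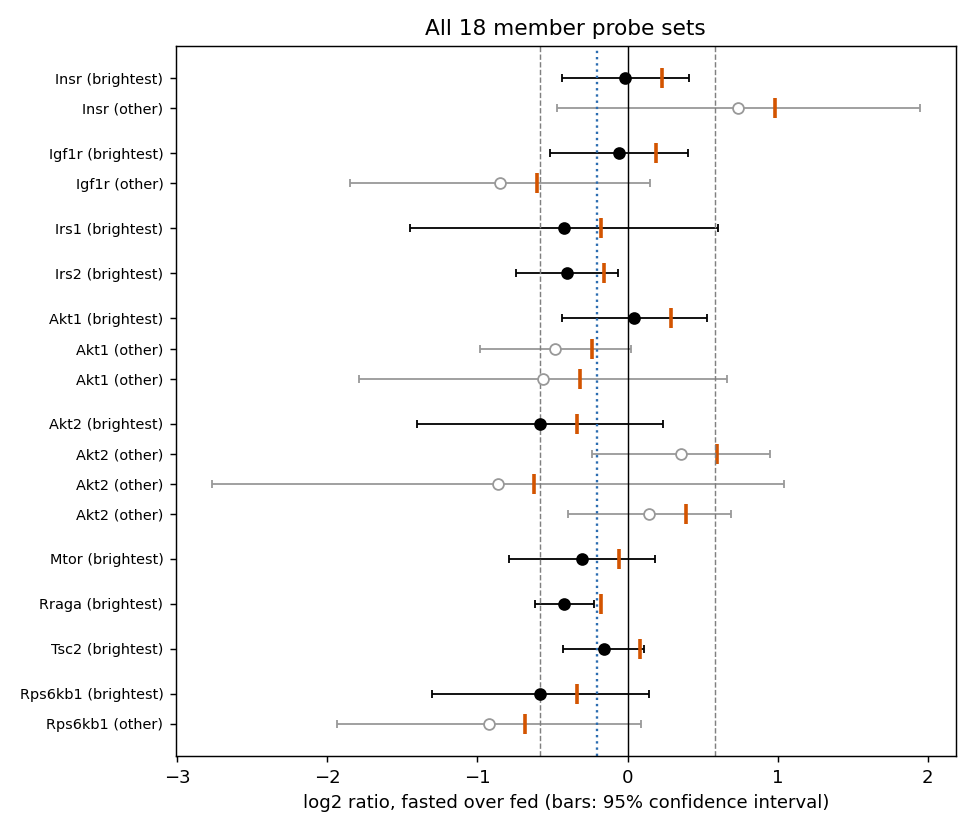
Change in fasted against fed rats (log2 ratio) of each of the 18 probe sets of the 10 genes, with 95% confidence intervals from limma, filled points for the brightest probe sets, open points for the others, orange ticks for the ratio after scaling to the 75th percentile, a dotted line at the median of all probe sets (-0.20) and dashed lines at 1.5-fold. The 4 probe sets of Akt2 and the 3 of Akt1 lie on both sides of 0, and 14 of the 18 lie below it.

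Within the mTORC1 branch, Rraga had the difference that was largest against its spread. Rraga encodes RagA, one of the small GTPases that hold mTORC1 at the lysosome when amino acids are present. Its probe set (1367736_at) read 747.2, 739.3 and 814.9 in fasted rats and 1093, 962.9 and 1030 in fed rats. The groups were well apart, and the isolates of each group lay close together. The means were 767 ± 41.6 in fasted and 1028 ± 65.0 in fed rats (SD, n = 3 each), a log2 ratio of -0.42 with a standard error of 0.08. This was 1.34-fold (95% confidence interval 1.17 to 1.54), under the 1.5-fold threshold, and the adjusted p of 0.176 in limma was the smallest among the 10 genes. Leaving out each array in turn kept the log2 ratio between -0.47 and -0.38, with an unadjusted p under 0.05 each time. Quantile normalization gave -0.28, still under 0.05 unadjusted. Scaling to the 75th percentile gave -0.18, where the unadjusted p did not reach 0.05, so the size of the difference moved with how the arrays were scaled.

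Mtor, the kinase subunit of the complex, read 44.0, 52.0 and 65.7 in fasted rats and 69.0, 57.7 and 70.9 in fed rats (1368019_at). Fasted replicates 1 and 2 were the lowest of the 6 arrays, and fasted replicate 3 lay between the fed ones. The log2 ratio was -0.30 with an interval of -0.79 to 0.18 (adjusted p = 0.477, limma), and with -0.05 under quantile normalization and -0.06 under scaling it was nearer to 0. Tsc2, the GTPase-activating subunit of the TSC complex that holds mTORC1 back, read 187.9, 208.7 and 222.8 in fasted rats and 235.7, 246.8 and 209.1 in fed rats (1368056_at). Its groups overlapped, with a log2 ratio of -0.16 (interval -0.43 to 0.11, adjusted p = 0.495 in limma) that was -0.02 under quantile normalization and 0.09 under scaling.

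Rps6kb1 encodes the S6 kinase, the substrate of mTORC1 that phosphorylates ribosomal protein S6. Its brighter probe set (1398396_at) read 21.7, 40.4 and 40.7 in fasted rats and 55.0, 45.4 and 47.8 in fed rats. All fasted arrays were below the fed ones, fasted replicate 1 by far and the other 2 narrowly. Its log2 ratio of -0.58 (95% confidence interval -1.30 to 0.14, adjusted p = 0.394 in limma) was -0.28 without fasted replicate 1, -0.36 under quantile normalization and -0.34 under scaling. The other probe set, at 13.6, 28.9 and 40.3 in fasted and 43.8, 53.2 and 46.6 in fed rats, again had every fasted array lowest, with a log2 ratio of -0.92 and an interval of -1.94 to 0.09. It passed as lower in the same 4 alternatives as the dimmer probe set of Igf1r.

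Ratios within an array were compared for 6 related pairs of members. Besides the 2 pairs given above, the difference between fasted and fed rats was 0.04 on the log2 scale for Insr over Igf1r (p = 1), -0.28 for Rps6kb1 over Mtor (p = 0.2), 0.14 for Tsc2 over Mtor (p = 0.7) and -0.12 for Rraga over Mtor (p = 0.5), all by two-sided exact permutation tests. In each pair the groups overlapped on the brightest probe sets over all 6 arrays. With a gene's probe sets averaged they did not for Insr over Igf1r, at 0.81, and Rps6kb1 over Mtor, at -0.45 (exact permutation test, p = 0.1 each). Adjusted over the 6 pairs each p was 1, and with 3 arrays against 3 the smallest p such a test can give is 0.1.

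Of all 18 probe sets, none passed in the main comparison, 14 had a ratio below 0 and 4 above it. The fasted arrays were all below the fed ones in 6 of the 18, against 17.6% of all probe sets, and all above them in 0, against 5.24%. Probe sets of a gene read the same RNA, so they are not independent of each other.

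The low values of the members gathered on 1 array. Fasted replicate 1 was the lowest of the 6 arrays for 7 of the 10 genes, and for 42.6% of all named genes. The median deviation of the members from their own mean over the arrays was -0.39, -0.17 and 0.03 on the log2 scale in fasted replicates 1, 2 and 3, and 0.18, 0.15 and 0.13 in fed replicates 1, 2 and 3. Over all probe sets it was -0.25, -0.12 and 0.06 in fasted and 0.11, 0.11 and 0.07 in fed replicates. The members thus followed the overall signal of each array in the same order of the fasted replicates. What part the overall signal had in the members' values was not tested beyond the scalings given above.

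**Figure D3:**
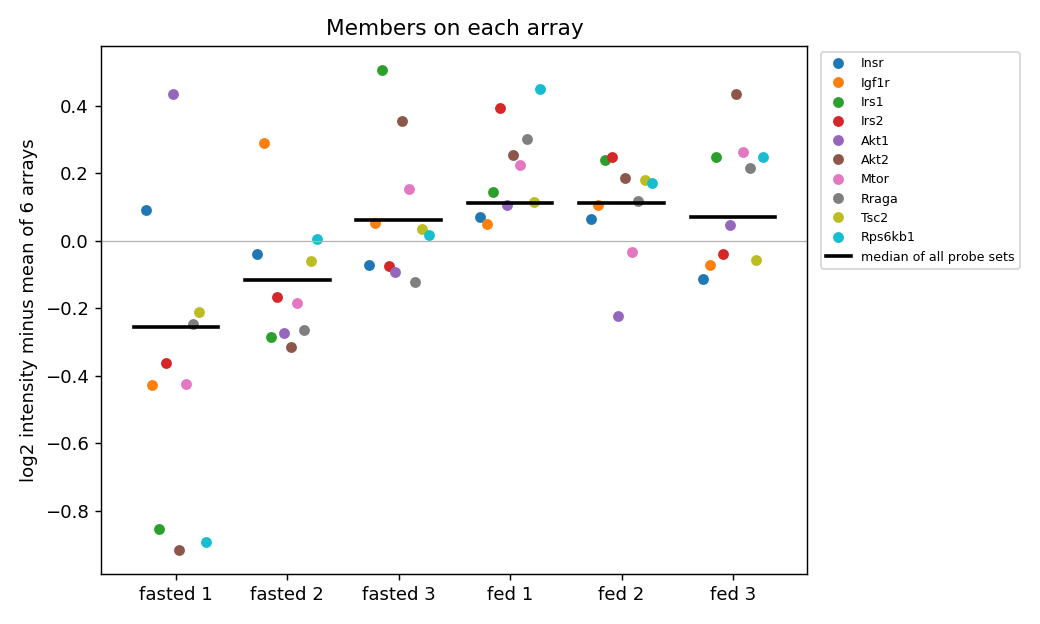
Log2 intensity of each of the 10 genes minus its own mean over the 6 arrays, by array, with the fasted arrays left and the fed arrays right, a coloured point per gene and a black bar for the median of all probe sets. Most members lie lowest in fasted replicate 1, where their median is -0.39 and that of all probe sets -0.25.

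To set the members among their partners, a list of 112 genes of insulin, PI3-kinase, AKT, mTORC1 and AMPK signalling, the 10 members included, was read off the same fit. Of these, 105 were measured. Lower in fasted rats were 6 genes (5.71%, against 9.51% of named genes), higher were 5 (4.76%, against 2.29%), and 94 did not pass. The median log2 ratio of the list was -0.14, against -0.20 over all probe sets. After scaling, 3 genes were lower and 11 higher, against 4.49% and 4.72% of named genes at that setting, and after quantile normalization 3 were lower and 10 higher, against 5.12% and 4.03%. The 5 genes that were higher stayed so in both scalings. Wdr24, Wdr59 and Ddit4 stayed lower, whereas Slc38a9, Rptor and Shc1 no longer passed. None of these genes had an adjusted p under 0.05.

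**Figure D4:**
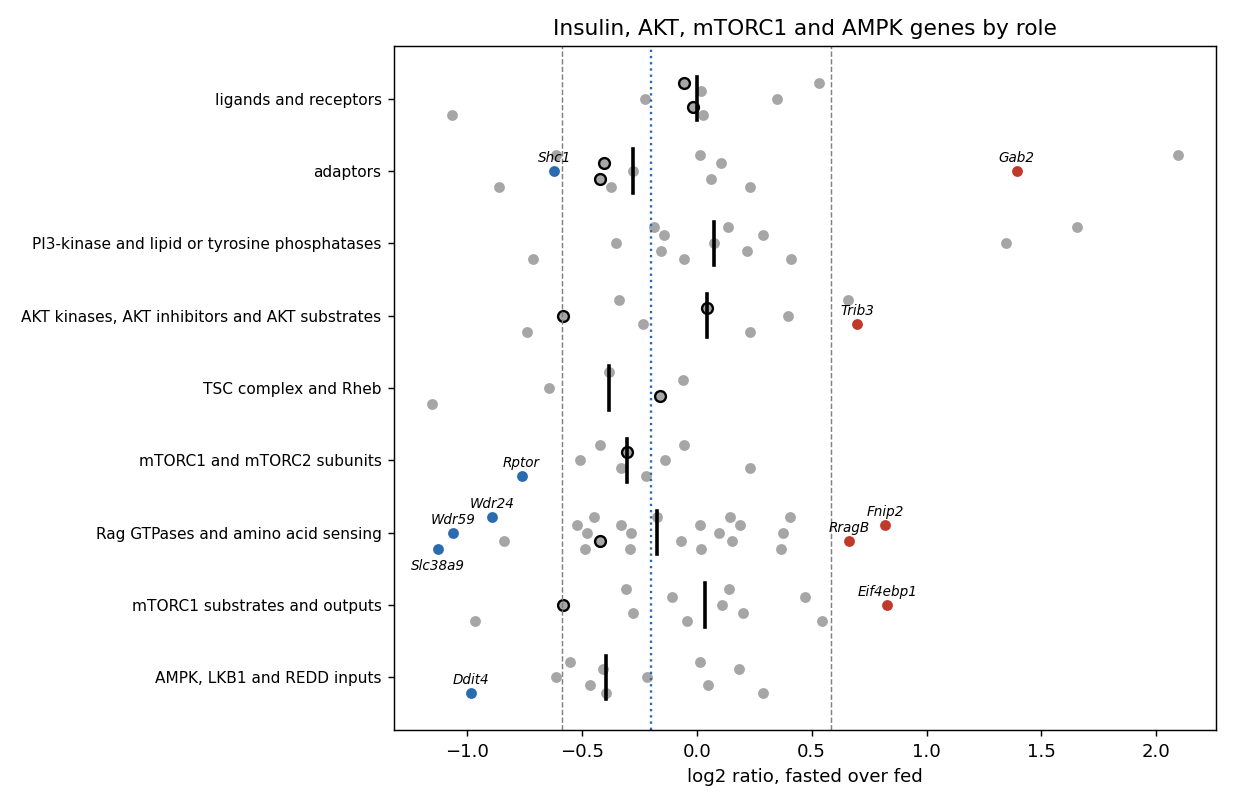
Change in fasted against fed rats (log2 ratio) of the 105 measured genes of the list, a point per gene, in rows by role from ligands and receptors to AMPK inputs, with the 6 lower genes in blue and the 5 higher in red, the 10 members ringed, a black bar at the median of each role, a dotted line at the median of all probe sets (-0.20) and dashed lines at 1.5-fold. Of the 6 lower genes, 3 are among the 25 Rag and amino acid sensing genes, the largest role.

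Among the 8 ligands and receptors none passed, with a median log2 ratio of 0.00. After quantile normalization and after scaling 2 of them were higher, against 4.03% and 4.72% of named genes at these settings. The insulin genes Ins1 and Ins2 were near the top of the scale, where a difference may not be readable. Ins1 read 5783 to 6299 in fasted and 5719 to 6200 in fed rats, and Ins2 5783 to 6053 and 5686 to 5872. Of the 13 adaptors 1 was lower (7.69%, against 9.51% of named genes) and 1 higher (7.69%, against 2.29%). Shc1, the adaptor that links receptors to the Ras pathway, read 72.8, 100.3 and 114.2 in fasted and 155.1, 141.8 and 137.4 in fed rats. It fell by 0.62 on the log2 scale (SE 0.19, adjusted p = 0.268, limma), but it did not pass without fasted replicate 1, at -0.43, or without fed replicate 1. Gab2, a docking protein for PI3-kinase and the phosphatase SHP2, rose, with 49.0, 23.6 and 20.5 in fasted and 15.1, 7.39 and 11.7 in fed rats. Its log2 ratio was 1.39 (SE 0.47, adjusted p = 0.288, limma) and its call was lost without fasted replicate 1, fed replicate 2 or fed replicate 3. None of the 13 genes of PI3-kinase and its opposing phosphatases passed, with a median of 0.07. In each of the 2 scalings 1 of these 13 was higher.

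Of the 9 genes of AKT, its inhibitors and its substrates, 1 was higher (11.1%, against 2.29% of named genes). This was Trib3, a pseudokinase that binds AKT and was described in liver as an inhibitor of it, and whose transcript is known as a target of the stress-induced factor ATF4. It read 459.4, 229.7 and 301.8 in fasted and 207.9, 190.4 and 188.8 in fed rats. All fasted arrays were above the fed ones, with fasted replicate 1 highest by far. The log2 ratio was 0.70 (SE 0.25, adjusted p = 0.294, limma), and its 2 other probe sets gave 0.89 and 0.70 and passed as well. The call was lost in 5 of the 6 settings that left out 1 array, with a log2 ratio of 0.43 without fasted replicate 1, and it held without fasted replicate 2.

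The promoter of Trib3 is shown because it alone, of the 7 matched promoters of the 11 genes that passed, held the composite element TGATGNAAN of ATF4. This element, searched on either strand, was in 3.38% of windows and in no matched member. The window, at chr3:161275534-161275783 on the minus strand of GRCr8 (RefSeq), is given 5′ to 3′ in the direction of the gene, with the element in capitals on the reverse strand, 22 to 14 bases before the start.
Trib3: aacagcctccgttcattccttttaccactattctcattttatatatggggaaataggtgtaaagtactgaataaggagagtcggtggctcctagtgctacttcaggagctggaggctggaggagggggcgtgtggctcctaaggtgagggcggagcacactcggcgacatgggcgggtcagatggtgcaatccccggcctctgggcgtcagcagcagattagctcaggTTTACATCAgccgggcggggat

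In the TSC complex with Rheb, all 5 genes had ratios below 0, as had 66.3% of all probe sets, and none passed. The median of -0.38 was -0.15 under quantile normalization and -0.14 under scaling. Of the 9 subunits of mTORC1 and mTORC2, Rptor passed as lower (11.1%, against 9.51% of named genes). Rptor, which encodes the subunit that recruits substrates to mTORC1, read 33.1, 65.0 and 52.6 in fasted and 94.1, 78.2 and 75.02 in fed rats. The fasted arrays were all below the fed ones, with means of 50.2 ± 16.1 in fasted and 82.4 ± 10.2 in fed rats (SD, n = 3 each). It fell by 0.76 on the log2 scale (SE 0.27, adjusted p = 0.298, limma). The call was lost on leaving out fasted replicate 1, fasted replicate 3 or any of the fed replicates, and under both scalings.

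The Rag and amino acid sensing genes, to which Rraga belongs, were the largest role on the list, with 3 of 25 lower (12%, against 9.51% of named genes) and 2 higher (8%, against 2.29%). After scaling 2 were lower and 4 higher, against 4.49% and 4.72% of named genes at that setting. After quantile normalization 2 were lower and 3 higher, against 5.12% and 4.03%. Among the 3 lower genes of the main comparison were 2 subunits of GATOR2, the complex that relieves the brake on the Rag GTPases. Wdr24 read 67.9, 80.9 and 89.4 in fasted and 162.2, 119.0 and 161.8 in fed rats. Its groups were well apart, at 79.4 ± 10.8 in fasted and 148 ± 24.8 in fed rats (SD, n = 3 each), and the log2 ratio of -0.89 (SE 0.18, adjusted p = 0.186, limma) passed in all 16 alternatives. Wdr59 read 14.3, 20.1 and 32.2 in fasted and 51.5, 39.6 and 41.3 in fed rats, with a log2 ratio of -1.06 (SE 0.35, adjusted p = 0.283, limma), and its call was lost without fasted replicate 2, fed replicate 1 or fed replicate 3. The other GATOR2 genes, named after their values were seen, did not pass, with log2 ratios of -0.48 for Sec13, -0.17 for Seh1l and 0.37 for Mios. Slc38a9, the lysosomal arginine sensor, was hardly above the floor, at 3.47, 3.11 and 1.49 in fasted and 4.13, 8.86 and 10.5 in fed rats. With 2 of its fasted values under the floor of 3.27, its log2 ratio of -1.13 depends on the floor, at -0.24 with a floor at the 25th percentile. Among the settings that left out 1 array, its call held only without fed replicate 1.

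The higher genes of this group were Fnip2 and RragB. Fnip2, a partner of folliculin in activating the Rag GTPases RagC and RagD, read 461.7, 515.8 and 420.7 in fasted and 311.1, 255.5 and 229.2 in fed rats. All fasted arrays were above all fed ones, at 466 ± 47.7 in fasted and 265 ± 41.8 in fed rats (SD, n = 3 each). It rose by 0.82 on the log2 scale (SE 0.14, adjusted p = 0.172, limma), a second probe set gave 0.69 and passed, and the last gave 0.06 and did not. The call of Fnip2 on its brightest probe set held with each array left out. RragB, the close relative of Rraga, read 253.5, 300.4 and 171.5 in fasted and 123.3, 185.7 and 143.3 in fed rats, so the groups overlapped. Its log2 ratio was 0.66 (SE 0.25, adjusted p = 0.311, limma), a second probe set gave -0.18, and the call was lost without fasted replicate 1, fasted replicate 2, fed replicate 1 or fed replicate 3. The brightest probe sets of Rraga and RragB thus lay on opposite sides of 0, and their difference was not tested.

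Of the 12 substrates and outputs of mTORC1, Rps6kb1 among them, 1 was higher (8.33%, against 2.29% of named genes). After quantile normalization and after scaling 2 were higher, against 4.03% and 4.72% of named genes at these settings. Eif4ebp1, the translation repressor that mTORC1 inactivates and that ATF4 is known to induce in mouse beta cells, read 225.9, 167.4 and 136.9 in fasted and 96.8, 98.1 and 97.1 in fed rats. The fed isolates were nearly identical and all fasted ones lay above them, fasted replicate 1 highest. The means were 177 ± 45.3 in fasted and 97.3 ± 0.657 in fed rats (SD, n = 3 each), and the log2 ratio was 0.83 (SE 0.19, adjusted p = 0.208, limma). It rose 1.78-fold and passed with each array left out, although its unadjusted p did not reach 0.05 in the comparison of linear means.

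Of the 11 genes of AMPK, LKB1 and REDD, Ddit4 was lower (9.09%, against 9.51% of named genes). The median log2 ratio of the 11 was -0.39, with -0.21 under quantile normalization and -0.15 under scaling. Ddit4, or REDD1, a stress-induced inhibitor of mTORC1 that acts through the TSC complex, read 56.7, 112.9 and 154.7 in fasted and 197.9, 214.7 and 179.5 in fed rats. Its fasted arrays were all below the fed ones but spread widely. It fell by 0.98 on the log2 scale (SE 0.36, adjusted p = 0.302, limma), and on leaving out 1 array the call held only without fasted replicate 3, with a log2 ratio of -0.57 without fasted replicate 1. The 5 genes that were higher, other than RragB, and the 6 lower ones had groups that did not overlap. These genes were picked by their difference on the same arrays, so this was largely fixed by the choice. Every fasted array lay below every fed array in 21 of the 105 measured genes of the list, against 21.2% of named genes. The fasted arrays lay above in 9, against 5.76%.

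**Figure D5:**
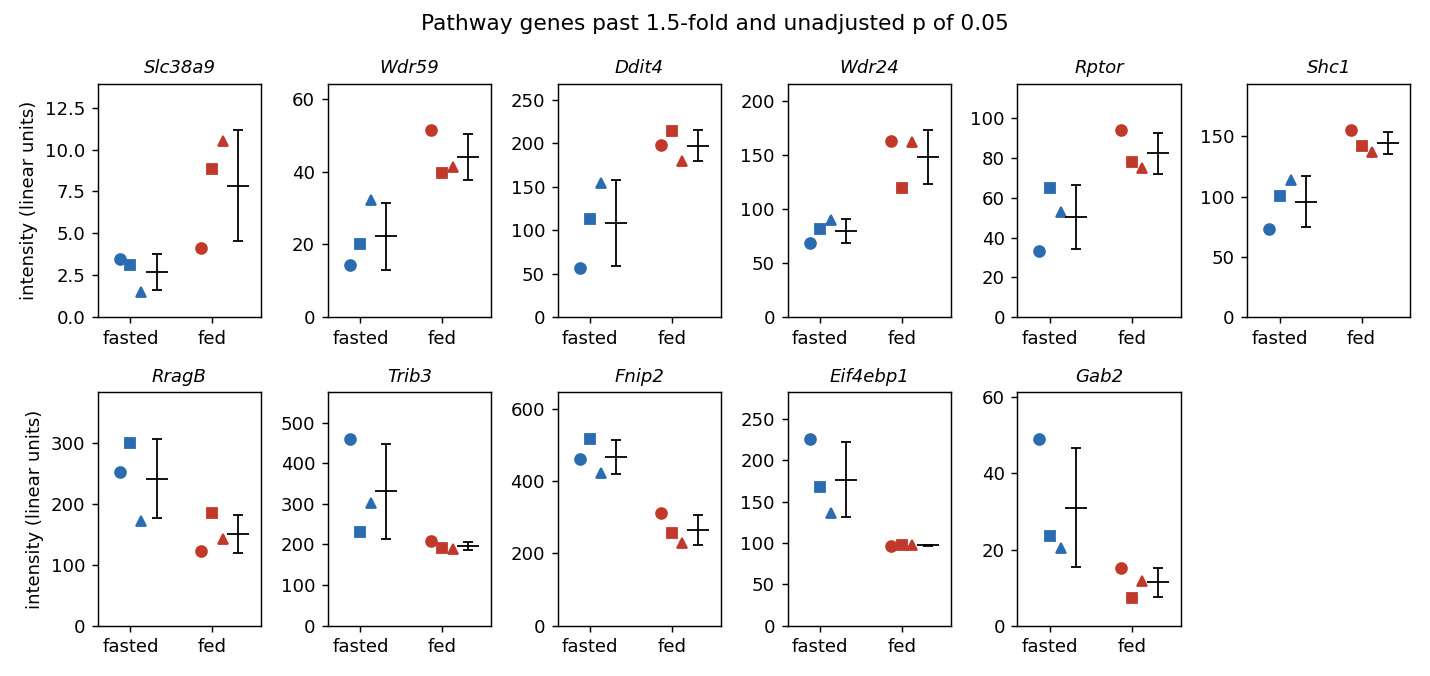
Linear intensity by array of the 6 lower genes (top row) and the 5 higher genes (bottom row) of the list, with fasted rats left (blue) and fed rats right (red), a circle, square and triangle for replicates 1, 2 and 3, and the mean with SD as black bars (n = 3 each). Fasted replicate 1 has the lowest value for the lower genes other than Slc38a9 and the highest for Eif4ebp1, Trib3 and Gab2.

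The identity of the cells was checked on marker genes, with summed intensities that ranged for the 7 measured beta cell markers over 22730 to 24170 in fasted and 23600 to 24770 in fed rats. Most of this sum came from Ins1, Ins2 and Iapp, near the top of the scale, where a difference may not be readable. The log2 ratio was 0.53 for Pdx1, -0.34 for Mafa, -0.21 for Slc2a2 and -0.11 for Nkx6-1, and none of these passed. Summed markers of alpha cells, 2 of 4 measured and nearly all Gcg, were at 4993 to 5788 in fasted and 3536 to 7715 in fed rats. Gcg read 4426, 7629 and 3532 in fed replicates 1, 2 and 3, so fed replicate 2 stood apart from the other fed isolates. Those of acinar cells, 8 of 8 measured, were at 42510 to 48100 in fasted and 45770 to 48570 in fed rats. The acinar enzymes were thus bright in every isolate of both groups, although single intensities ended at 7629. Summed duct markers, 3 of 4 measured and with Krt19 as the largest part, were at 118.5 to 142.2 in fasted and 91.97 to 102.1 in fed rats. Krt19, at a log2 ratio of 0.70 (chosen after its value was seen), was the only marker that passed. The other duct markers did not read alike, at -0.25 for Cftr and 0.19 for Spp1. The part of these other cells in the members' values was not tested.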

How the data were processed

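Linear intensities were deposited. The authors had computed them with the model of dChip, using the array of median intensity as the baseline for normalization and the mismatch probes as background. The version of dChip is not given in the sources used here. RNA of all isolates had been extracted together, with a RIN of at least 8. After 57 control probe sets had been set aside and a floor applied at the 10th percentile, limma 3.58.1 (R 4.3.3) compared 3 arrays with 3 on the log2 scale, with lmFit, eBayes and an intensity trend, without a block and two-sided. P-values were adjusted by the Benjamini-Hochberg method over 31042 probe sets.

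A symbol was single for 20826 probe sets of the platform annotation, which can be old, several for 436 and absent for 9780. By gene number 20758 matched the rat gene table (GRCr8), and 0 symbols changed. Symbols were matched without regard to case. Means and SDs are of linear intensities. The genes named are all members and every listed gene that passed, up to the 10 lowest and 10 highest; exceptions are said where they occur. Some genes that the rule or the list took are not reported here. The members, the lists and the tests were chosen with earlier results of these data known.

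The alternatives were the comparison of linear means with unequal variances, dim probe sets left out (those not above 20.2), the floor set at the 25th percentile (7.53) or replaced by a pseudocount, scaling to the 75th percentile, quantile normalization, no trend, robust variance, the replicate number as a block, each array left out, and averaging a gene's probe sets. Before use the fit was tested on simulated data. Plots were made in Python 3.11.15 with matplotlib 3.10.9. Scan dates were not used, so no scan batch was tested.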

Additional observations from a re-analysis of the deposited data

How the results depend on the processing

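On its brightest probe set no member passed in the main comparison, and none passed in any alternative except Akt2 without fasted replicate 3, so that leaving out 1 array gave 0 to 1 lower members. Over all probe sets, 2616 were lower and 737 higher. The lower count was 1625 with linear means, 1501 with quantile normalization, 1329 with scaling and 1448 to 5562 with 1 array left out. The higher count was 269 with linear means, 379 with dim probe sets left out, 419 with the floor at the 25th percentile, 1275 with quantile normalization, 1430 with scaling and 472 to 1536 with 1 array left out. Of the calls, 78% were lower, against 54.1% after quantile normalization and 48.2% after scaling. Probe sets with an adjusted p under 0.05 numbered 0 in the main fit, 124 with dim probe sets left out, 83 with the pseudocount, 88 with robust variance and 1 with the higher floor, and none of these was a member's brightest probe set. On the pathway list, 6 were lower and 5 higher. The lower count was 3 with linear means, 3 with quantile normalization, 3 with scaling and 2 to 14 with 1 array left out, and the higher count was 1, 10, 11 and 2 to 11 in these settings.

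The sign turned for the members near 0. Insr gave 0.22 with quantile normalization, 0.23 with scaling, 0.36 with the mean of its probe sets and -0.075 to 0.018 with 1 array left out. Igf1r gave 0.080, 0.19, -0.45 and -0.22 to 0.14 in the same settings, where the -0.45 kept the sign of the main fit. Akt1 gave -0.33 with the mean of its probe sets and -0.16 to 0.19 with 1 array left out, and Tsc2 gave 0.085 with scaling. The ratio of Irs2 over Irs1 gave -0.069 with quantile normalization, -0.095 with the pseudocount and -0.22 to 0.31 with 1 array left out. That of Insr over Igf1r gave -0.21 to 0.22 with 1 array left out and 0.81 with the mean of all probe sets, and that of Akt2 over Akt1 gave 0.10 with that mean and -1.01 to -0.11 with 1 array left out. The cause was not tested.

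Arrays with the same replicate number did not deviate together (correlations of 0.0001, 0.01 and -0.05). Those with different numbers had correlations of -0.03 to 0.03. With 3 isolates per group these values cannot decide whether isolates of the same number were handled together. With the replicate number as a block, 2046 probe sets were lower, 644 higher, and 0 members passed.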
